A study of Homo sapiens with 14 samples.

Results

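A set of 7 mature microRNAs (miRNAs) whose hairpins lie inside human HOX gene clusters was taken by name from a table of 2848 small RNA entries: hsa-miR-7704, hsa-miR-10a-5p, hsa-miR-10b-5p, hsa-miR-196a-5p, hsa-miR-196a-3p, hsa-miR-196b-5p and hsa-miR-615-3p (hsa, for human, is left off from here on). All 7 had an entry, and all 7 had enough reads to be tested, among 810 tested entries. The set was chosen by hairpin position around miR-7704, and miR-7704 itself was selected on its treated-against-control values in these same libraries. Those values are therefore given as a description that supports nothing further.

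The reads came from PANC-1, a long-established line of human pancreatic cancer cells, kept in culture medium with serum. Cells received grape proanthocyanidins (PA, chains of flavan-3-ol units found in grape) at 20 µg/ml and were harvested after 3, 12 or 24 h, or received the solvent DMSO and were harvested after 0, 3, 12 or 24 h. Each of these 7 groups had 2 libraries, A and B, which gives 8 DMSO and 6 PA libraries of 1 cell line. No genetic change was named for any group. The submitters' design note mentions biological replication, but nothing read here says that A and B were grown as separate cultures, so spreads and p-values measure differences between libraries, which may be in part technical.

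HOX genes encode transcription factors that lay out the body axis of the embryo and are arranged in 4 clusters, HOXA to HOXD. Several miRNA genes sit between or inside them on the same strand. A miRNA is cut from a hairpin and guides a silencing complex to messenger RNAs that pair with its seed, the stretch from base 2 to base 8 of its 5′ end. The hairpin has a 5′ and a 3′ arm (5p and 3p), and one arm usually accumulates more than the other. The miR-10 and miR-196 families are old animal families known to target HOX messengers, for example HOXB8 by miR-196, and miR-10b is known for its link to invasion in breast cancer. miR-7704 is a little-studied entry annotated inside HOXD1 itself.

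The mature sequences of 6 of the 7 were matched in RefSeq (GRCh38.p14), all but miR-10b-5p, and are shown to compare these 6 by seed. They are written 5′ to 3′, with the seed in capitals.
miR-7704: cGGGGUCGgcggcgacgug
miR-10a-5p: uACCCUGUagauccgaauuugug
miR-196a-5p: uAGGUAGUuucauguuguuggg
miR-196b-5p: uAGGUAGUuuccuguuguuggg
miR-196a-3p: cGGCAACAagaaacugccugag
miR-615-3p: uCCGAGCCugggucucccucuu
miR-196a-5p and miR-196b-5p had the same seed and differed by 1 substitution, A12C (the miR-196a-5p base first, counted from 1 at the 5′ end). No other tested entry with a sequence shared the seed of any of the 6. Without a sequence, miR-10b-5p was not compared, so a seed shared with miR-10a-5p or another member would not show here. miR-7704 was the shortest, with 19 bases against 22 or 23, and 84.2% of its bases were G or C.

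The 7 members came from 7 hairpins, placed here on GRCh38. MIR7704 (chr2:176188843-176188901, plus strand) lay whole within exon 1 of the 2 exons of HOXD1, in coding sequence that begins 41 bases before it, and opposite an exon of the antisense transcript HAGLR. An exact search of 206694 GENCODE v29 transcripts found the 19 bases of miR-7704 in HOXD1 and in MIR7704 only. MIR10B (chr2:176150303-176150412, plus strand) lay in the same cluster, 38.4 kb before MIR7704, in an intron of HOXD3 and 0.81 kb from HOXD4. MIR10A (chr17:48579838-48579947, minus strand) lay in an intron of HOXB3 and in an untranslated exon stretch of 1 HOXB4 transcript. miR-196a-5p is cut from 2 hairpins, MIR196A2 (chr12:53991738-53991847, plus strand) in an intron of HOXC6 and MIR196A1 (chr17:48632490-48632559, minus strand) in an intron of HOXB7. Of these, the miR-196a-3p sequence matched MIR196A2 alone. MIR196B (chr7:27169480-27169563, minus strand) overlapped HOXA9, 1.03 kb from HOXA10, and MIR615 (chr12:54033950-54034045, plus strand) lay in introns of HOXC4 and HOXC5. The use of strand in counting was not given in the sources used here, so reads of miR-7704, HOXD1 and HAGLR that hold these bases cannot be told apart.

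Total counts ran from 1032391 to 3111014 per library, with a median of 2076388. Levels are CPM, the usual depth-scaled counts, after TMM scaling of the totals (factors 0.886 to 1.08). Among the controls, 106 of 810 entries changed over the DMSO times 0, 3, 12 and 24 h (adjusted p under 0.05, edgeR quasi-likelihood test). Without the 2 libraries of DMSO at 12 h, an alternative added after seeing the data, 36 of 792 did. That fit also compares fewer groups, and no other DMSO pair was left out. Whether the fall is particular to 12 h was therefore not tested. Results that use the DMSO 12 h pair are given both ways for some entries only. Lists of miRNAs typical of acinar, haematopoietic, and muscle, liver or nerve cells each summed to at most 7.43 CPM in a library. Of the acinar miRNAs, miR-216a-5p was at 0 in 13 of 14 libraries, miR-217 in 9 and miR-216b-5p in 2. The islet list summed to 67.3 to 187 CPM (mostly miR-7-5p), the red blood cell list to 296 to 591 CPM (nearly all miR-486-5p, with miR-451a at 0 in 10 libraries) and the fibroblast and endothelial list to 401 to 873 CPM (mostly miR-126-3p). These are bulk samples of 1 cell line, so the sums are not read as cells of these kinds. Fewer cells with a miRNA and less of it per cell cannot be told apart.

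The 7 members differed widely in abundance. miR-10a-5p led with a mean of 28436 CPM, rank 9 of all 2848 entries, and made up 87.0% to 92.7% of the summed CPM of the 7. miR-196a-5p followed with 1860 CPM (rank 52), miR-615-3p with 973 CPM (rank 85), miR-10b-5p with 303 CPM (rank 156), miR-7704 with 70.9 CPM (rank 272), miR-196a-3p with 32.7 CPM (rank 346) and miR-196b-5p with 2.80 CPM (rank 767). The order was the same per base of mature sequence for the 6 members with a known length. miR-10a-5p was above miR-196a-5p, miR-615-3p above miR-10b-5p, and miR-196a-3p above miR-196b-5p with no overlap between libraries. miR-196a-5p was above miR-615-3p in each of the 14 libraries although their ranges overlapped. miR-10b-5p was above miR-7704 in 13 of 14 libraries and miR-7704 above miR-196a-3p in 7 of 14, so the place of miR-7704 depended on the library.

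miR-7704, the HOXD1 member, had low counts in DMSO and higher ones in PA at every time. In DMSO it was at 11.8 and 11.5 CPM at 0 h (libraries A and B), 11.5 and 4.68 CPM at 3 h, 22.2 and 16.4 CPM at 12 h, and 4.92 and 6.93 CPM at 24 h. In PA it was at 95.6 and 48.4 CPM at 3 h, 46.4 and 96.0 CPM at 12 h, and 185 and 431 CPM at 24 h. The lowest PA library, PA 12 h A, lay above the highest DMSO library, DMSO 12 h A. The reads behind these values numbered 8 to 39 in a DMSO library and 92 to 513 in a PA library. The PA 24 h pair was above the other PA libraries but also differed most within itself in CPM, and library A of PA was the higher one at 3 h and the lower one at 12 and 24 h.

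**Figure D1:**
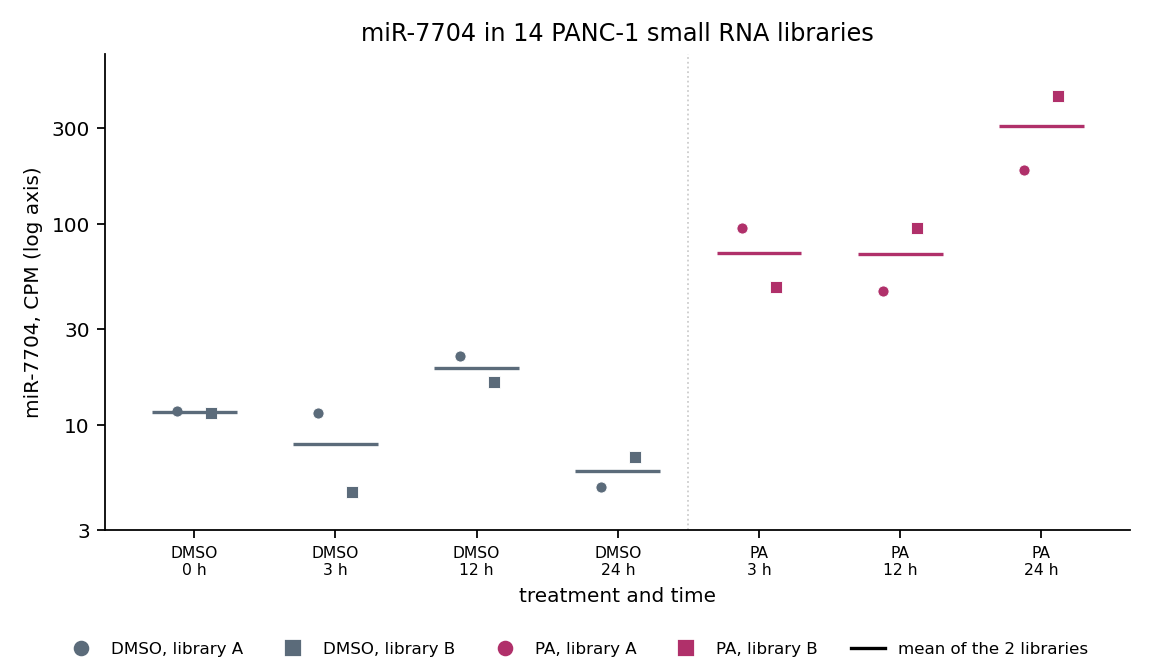
miR-7704 in each library (vertical log axis, CPM) by treatment and time, with circles for library A, squares for library B and a bar for the mean of the 2. The 6 PA libraries sit between 46.4 and 431 CPM, all above the 8 DMSO libraries at 4.68 to 22.2 CPM.

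Group means were 72.0 ± 33.4 CPM (SD, n = 2) for PA against 8.07 ± 4.79 CPM for DMSO at 3 h, 71.2 ± 35.1 against 19.3 ± 4.11 CPM at 12 h, and 308 ± 174 against 5.93 ± 1.42 CPM at 24 h. The ratios of these means were 8.93, 3.69 and 52.0. Fitted log2 fold changes were 3.07 ± 0.52 (SE) at 3 h, 1.87 ± 0.49 at 12 h and 5.68 ± 0.55 at 24 h, and their 95% intervals were 1.96 to 4.18, 0.81 to 2.92 and 4.50 to 6.86. The 12 h value was the smallest, and DMSO was highest at that time. With DMSO averaged over the other times as the control it was 3.09, and the values at 3 and 24 h were then 2.69 and 4.61. Leaving out 1 library at a time, the 3 values ran from 2.50 to 3.93 (the highest without DMSO 3 h A), from 1.30 to 2.33 and from 4.98 (without PA 24 h B) to 6.19. The fitted change at 24 h minus that at 3 h was 2.61 ± 0.77 (log2), with 1.76 without DMSO 3 h A, 1.92 without PA 24 h B and 3.20 without PA 3 h A. That difference missed the threshold (adjusted p = 0.131, edgeR), also with library totals (0.15) and with a replicate block (0.18). It passed with DESeq2 (0.0177) and, in edgeR, without the filter on low counts (0.000269). It was built from the values that miR-7704 was selected on, so these p-values are a description only. All 6 PA libraries lay above all 8 DMSO libraries for 5 of 810 entries (0.617%): miR-7704, miR-27a-5p, miR-27b-3p, miR-629-5p and the unnamed entry chr8_19924.

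By log2 fold change miR-7704 held rank 3 at 3 h, rank 15 at 12 h and rank 5 at 24 h among the 810 entries. Its neighbours in that order had far fewer reads. At 3 h miR-6726-3p above it was listed at 0 in DMSO and at 0.886 CPM in PA, and miR-6501-5p below it was at 0.191 and 1.77 CPM. At 12 h the neighbours were miR-1283 at 2.10 and 7.11 CPM and the unnamed chr1_1099 at 0.569 and 2.60 CPM. At 24 h miR-3691-5p and miR-4634 were listed at 0 in DMSO, and at 6.29 and 2.04 CPM in PA. The SE of these neighbours ran from 0.74 to 2.25, against 0.49 to 0.55 for miR-7704.

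miR-10b-5p, the member 38.4 kb away in the same HOXD cluster, did not show this separation. It was at 190 and 270 CPM in DMSO 0 h, 380 and 353 in DMSO 3 h, 239 and 286 in DMSO 12 h and 271 and 253 in DMSO 24 h. In PA it was at 312 and 271 CPM at 3 h, 309 and 335 at 12 h, then 483 and 292 at 24 h. Only PA 24 h A lay above every DMSO library. The log2 fold changes were −0.33 ± 0.22, 0.30 ± 0.23 and 0.57 ± 0.23 at 3, 12 and 24 h, with 95% intervals of −0.81 to 0.14, −0.18 to 0.78 and 0.09 to 1.05. The 3 h value turned to 0.22 against the other DMSO times, and DMSO 3 h held the highest DMSO libraries, and the 24 h value was 0.17 without PA 24 h A and 0.91 without PA 24 h B.

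Set against each other within a library, where scaling cancels, there were 6.21 and 4.27 miR-7704 reads per 100 miR-10b-5p reads in DMSO 0 h, 3.02 and 1.33 in DMSO 3 h, 9.26 and 5.73 in DMSO 12 h and 1.81 and 2.74 in DMSO 24 h. PA libraries had 30.7 and 17.9 at 3 h, 15.01 and 28.6 at 12 h, then 38.3 and 148 at 24 h. The ratio was therefore higher in each PA library than in each DMSO library, and in PA 24 h B the HOXD1 entry outnumbered miR-10b-5p. Over the 14 libraries the log2 CPM of the HOXD pair had a Pearson r of 0.36, given as a description because the libraries share groups.

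miR-10a-5p, the HOXB relative of miR-10b and the most abundant member, was lowest in DMSO 0 h. The DMSO libraries had 18508 and 18306 CPM at 0 h, against 27194 and 29710 at 3 h, 25810 and 30084 at 12 h, then 24849 and 27271 at 24 h. PA had 25413 and 26768 CPM at 3 h, 30758 and 36663 at 12 h, then 46706 and 30068 at 24 h. The 0 h pair lay below all 12 later libraries, and the PA pair lay above the DMSO pair of the same time at 12 and 24 h and below it at 3 h. The log2 fold changes were −0.12 ± 0.18, 0.27 ± 0.18 and 0.56 ± 0.18 at 3, 12 and 24 h. Without PA 24 h A the 24 h value was 0.23 and without PA 24 h B it was 0.87. Against the other DMSO times the 3 h value turned to 0.14, and the values at 12 and 24 h were 0.50 and 0.65.

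The 5p forms of the 2 miR-10 loci ran alike, with a Pearson r of 0.78 between miR-10a-5p and miR-10b-5p over 14 libraries. The treatment of reads with several matches is not given in the sources used here. The part of shared reads in this likeness was not tested. miR-10a-5p had 67.9 to 109 reads for each miR-10b-5p read, with a median of 94.6 in DMSO and 99.1 in PA. The other arm varied less: miR-10a-3p stayed between 506 and 671 CPM in all 14 libraries, with log2 fold changes of 0.05 ± 0.15, 0.32 ± 0.15 and −0.08 ± 0.15. The 5p arm had 32.5 and 27.6 reads per 3p read in DMSO 0 h, 37.9 to 55.2 in the other libraries through PA 12 h, and 74.4 and 53.0 in PA 24 h. miR-10b-3p was rarer, at 6.93 to 18.7 CPM.

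The miR-196 family, known to target HOX messengers, was carried almost wholly by miR-196a-5p. In DMSO it was at 1753 and 1393 CPM at 0 h, 1894 and 1854 at 3 h, 1497 and 1703 at 12 h, then 2129 and 2108 at 24 h. In PA it was at 1835 and 1892 CPM at 3 h, 2256 and 1968 at 12 h, then 2106 and 1649 at 24 h. PA and DMSO overlapped at 3 h, PA was the higher at 12 h and the lower at 24 h. Its log2 fold changes were −0.01 ± 0.17, 0.40 ± 0.17 and −0.17 ± 0.17. The last turned to 0.16 against the other DMSO times and to 0.02 without PA 24 h B, and the 3 h value had no stable sign. The 12 h value ran from 0.20 to 0.55 over the alternatives.

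miR-196a-3p, the opposite arm of MIR196A2, was far rarer. It was at 39.0 and 29.6 CPM in DMSO 0 h, 39.0 and 39.8 in DMSO 3 h, 19.3 and 19.1 in DMSO 12 h and 54.9 and 39.9 in DMSO 24 h. PA had 37.2 and 33.5 CPM at 3 h, 33.3 and 28.3 at 12 h, then 18.0 and 26.9 at 24 h. PA lay above DMSO at 12 h, where DMSO was at its lowest, and below it at 24 h, where DMSO was at its highest. Its log2 fold changes were −0.16 ± 0.27, 0.67 ± 0.30 and −1.11 ± 0.28. Against DMSO averaged over the other times they were 0.16, −0.38 and −0.44, so the signs at 3 and 12 h turned and the 24 h value shrank.

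The arms of miR-196a stood at 44.9 and 47.1 5p reads per 3p read in DMSO 0 h, 48.6 and 46.6 in DMSO 3 h, 77.4 and 89.2 in DMSO 12 h and 38.8 and 52.9 in DMSO 24 h. PA libraries had 49.4 and 56.4 such reads at 3 h, then 67.8 and 69.6 at 12 h, then 117 and 61.3 at 24 h. The PA ratio lay above that of DMSO at 3 and 24 h and below it at 12 h. Since miR-196a-5p can also come from MIR196A1, this ratio is not that of 1 hairpin. miR-196b-5p, the HOXA member with the same seed, rested on 1 to 16 reads per library. It was at 0.433 to 9.86 CPM in DMSO and 0.401 to 1.99 CPM in PA, and these ranges overlapped. Its log2 fold changes of −1.70, −1.88 and −0.90 had SE of 1.13, 1.16 and 1.39, so no difference was detectable at this depth.

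**Figure D2:**
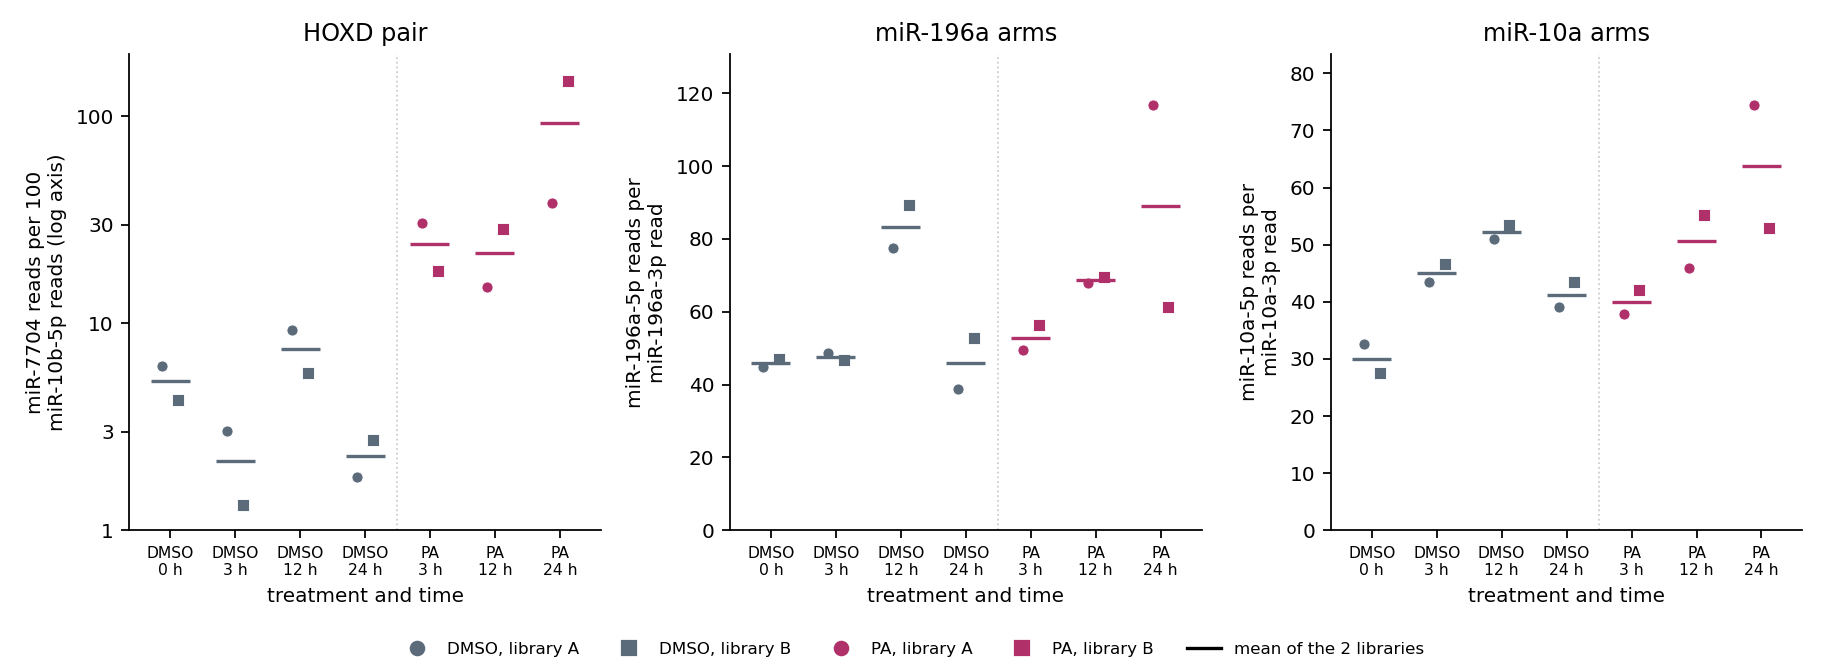
Ratios of raw reads in each library by treatment and time: miR-7704 per 100 miR-10b-5p reads (left, log axis), miR-196a-5p per miR-196a-3p read (middle) and miR-10a-5p per miR-10a-3p read (right, both linear from 0), with circles for library A, squares for library B and bars for means. The left ratio is 1.33 to 9.26 in DMSO and 15.01 to 148 in PA, while PA and DMSO overlap in the other 2 panels.

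miR-615-3p of the HOXC cluster had overlapping PA and DMSO libraries at 3 and 24 h. It was at 758 and 918 CPM in DMSO 0 h, 947 and 818 in DMSO 3 h, 1010 and 1541 in DMSO 12 h and 913 and 1058 in DMSO 24 h. PA had 875 and 902 CPM at 3 h, 915 and 946 at 12 h, then 880 and 1137 at 24 h. Only DMSO 12 h B stood clearly above the rest. The log2 fold changes were 0.01 ± 0.20, −0.45 ± 0.20 and 0.03 ± 0.20, and the 12 h value was 0.05 against the other DMSO times. The 95% interval at 24 h was −0.40 to 0.46. Its 5p arm was rare, at 1.75 to 15.5 CPM.

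**Figure D3:**
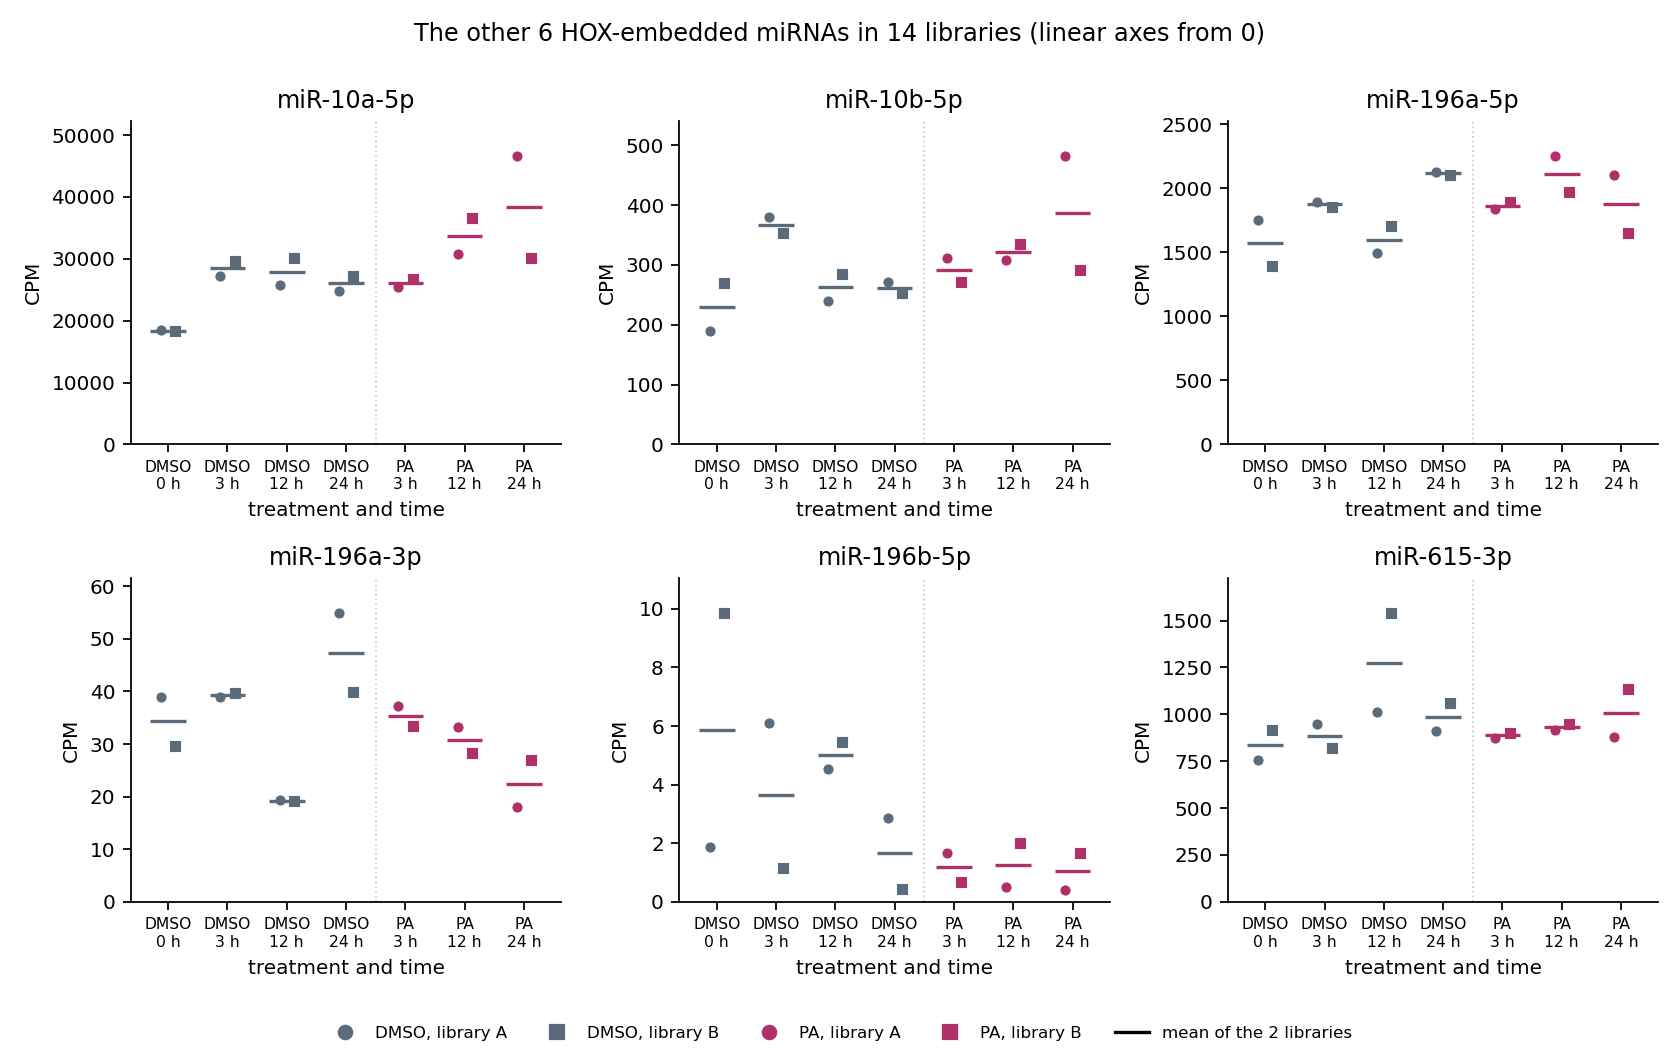
CPM of the other 6 members in each library, 1 panel a member with a linear axis from 0, by treatment and time (circles for library A, squares for library B, bars for means of 2). DMSO 0 h is lowest for miR-10a-5p (18306 and 18508 CPM), DMSO 12 h is lowest among the DMSO groups for miR-196a-3p (19.1 and 19.3 CPM), and PA and DMSO ranges overlap in every panel.

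Across the set, the median log2 fold change was −0.12 at 3 h, 0.30 at 12 h and 0.03 at 24 h, beside −0.01, −0.06 and −0.01 over all 810 entries. Of the 7 members, 2, 5 and 4 had a positive value at the 3 times. Both PA libraries lay above both DMSO libraries for 1 member at 3 h (16.3% of entries did), 5 at 12 h (25.3%) and 3 at 24 h (25.6%). They lay below for 3 members at 3 h (16.0%), 2 at 12 h (26.8%) and 2 at 24 h (26.5%). These contrasts were among those known when the members were chosen, so nothing is read from the counts.

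**Figure D4:**
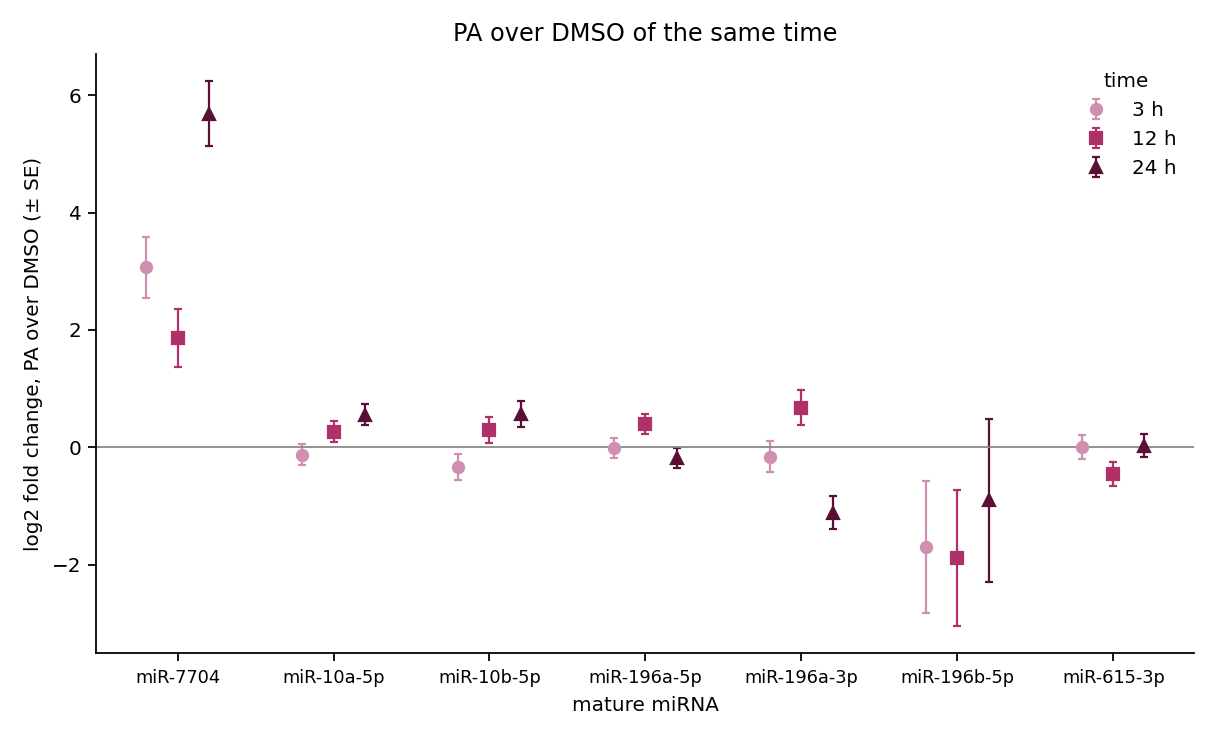
Log2 fold change of PA over DMSO of the same time (vertical axis, edgeR fit, bars ± SE) for the 7 members at 3 h (circles), 12 h (squares) and 24 h (triangles). miR-7704 is at 3.07, 1.87 and 5.68, and the other members lie between −1.88 and 0.67.

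The DMSO time course held no PA library in its contrast. Its 8 libraries are also the controls of the PA comparisons, so it is not fully independent of how the members were chosen. It asked whether an entry differed among DMSO at 0, 3, 12 and 24 h. One of the 7 members passed, miR-196a-3p (adjusted p = 0.0343, edgeR quasi-likelihood test), where 13.1% of the 810 entries passed. Its group means were 34.3, 39.4, 19.2 and 47.4 CPM at 0, 3, 12 and 24 h, with the DMSO 12 h pair below every other DMSO library. The share of entries with the 12 h pair lowest was not counted. This call was fragile, being lost in 11 of 20 alternatives. With both DMSO 12 h libraries removed the adjusted p was 0.546 (edgeR). No other DMSO pair was removed and fewer groups were then compared, so the loss cannot be tied to 12 h. miR-196a-3p missed the threshold too on removal of either single library of DMSO at 12 h, and on removal of library A of DMSO at 24 h. It also missed the threshold with DESeq2 (0.0803), with only the 8 DMSO libraries (0.0822) and without DMSO 3 h A (0.0575) or B (0.0658), PA 3 h A (0.0651) or B (0.0559), or PA 12 h A (0.0522).

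The remaining members did not pass, with adjusted p = 0.0764 for miR-10a-5p, 0.137 for miR-615-3p, 0.153 for miR-10b-5p, 0.198 for miR-7704, 0.202 for miR-196a-5p and 0.613 for miR-196b-5p (edgeR). For miR-10a-5p the log2 differences from 0 h were 0.63 ± 0.18 at 3 h, 0.60 ± 0.18 at 12 h and 0.50 ± 0.18 at 24 h. Its adjusted p was 0.0445 in the fit of the 8 DMSO libraries alone and 0.0147 without the filter on low counts, and it was 0.0216 without PA 24 h A and 0.0074 without PA 24 h B. miR-10b-5p reached 0.0309 without PA 24 h B, and miR-615-3p 0.0139 without DMSO 12 h A. For miR-7704 the differences from 0 h were −0.45 ± 0.62, 0.75 ± 0.59 and −0.97 ± 0.65, on 8 to 39 reads a library. DESeq2 gave it 0.041 and the fit without the filter 0.00784, while without the DMSO 12 h libraries it was 0.688.

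Of the 6 other mature miRNAs of HOX hairpins that were looked for (miR-10a-3p, miR-10b-3p, miR-196b-3p, miR-615-5p, miR-196a-1-3p and miR-3185), 4 had an entry and 3 were tested. None of the 3 passed in the DMSO time course (adjusted p = 0.538 for miR-10a-3p, 0.53 for miR-10b-3p and 0.13 for miR-615-5p, edgeR). None passed in PA against DMSO at 3 h, where 0.247% of the 810 entries did, at 12 h, where 11.1% did, or at 24 h, where 6.67% did. miR-615-5p had 99.6 to 466 miR-615-3p reads for each of its own. miR-3185, next to HOXB13, had 3 reads in all.

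The miR-99 and miR-100 family resembles miR-10 at its 5′ end and lies outside the HOX clusters. At 24 h its 3 members were higher in PA with adjusted p under 0.05 (edgeR): miR-99a-5p by 0.96 ± 0.27, miR-99b-5p by 0.60 ± 0.16 and miR-100-5p by 0.56 ± 0.15 (log2). At that time 54 of the 810 entries passed (6.67%). Earlier results of these data were known when these relatives were named, so their calls are a description only. miR-10a-5p and miR-10b-5p had 0.56 ± 0.18 and 0.57 ± 0.23 there. Whether the families differed was not tested. At 12 h miR-99a-5p was at 202 CPM in PA and 690 CPM in DMSO, where the other DMSO groups had 146 to 194 CPM.

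The entries whose log2 CPM ran most like a member over the 14 libraries are given by Pearson r as a description, with no p, since the libraries share groups and depth. For miR-7704 they were chr8_19924 (0.96), miR-27a-5p (0.83), miR-874-3p (0.80), chr19_35739 (0.78) and miR-548au-3p (0.75), none of them in the HOX set. chr8_19924 had 21.2 to 122 CPM in DMSO and 309 to 10812 CPM in PA. For miR-10a-5p the 3 most alike were miR-27a-5p (0.87), miR-409-5p (0.87) and miR-185-5p (0.83), and for miR-10b-5p miR-10a-5p (0.78), miR-548ay-5p (0.72) and miR-1301-3p (0.69). For miR-196a-5p they were miR-548aq-3p (0.93), miR-19b-3p (0.89) and miR-19a-3p (0.85), and for miR-196a-3p miR-339-5p (0.91), chr22_38634 (0.79) and miR-136-5p (0.79). For miR-196b-5p they were miR-6715b-3p (0.80), chr11_23223 (0.77) and let-7c-5p (0.77), and for miR-615-3p miR-370-3p (0.88), miR-941 (0.87) and miR-191-5p (0.85). Within the set, miR-7704 had r of 0.53 with miR-10a-5p, −0.50 with miR-196a-3p and 0.03 with miR-196a-5p. The arms of miR-196a had r of 0.37.

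Base composition and RNA fragments were set beside miR-7704. Over the 597 of 682 named tested entries with a sequence (87.5%), the median share of G and C was 47.6%, and 7 other entries were at or above the 84.2% of miR-7704. The 18 other entries at 75% or more had a median log2 fold change of −0.37 at 3 h, −1.21 at 12 h and 0.42 at 24 h, with a range of −1.15 to 5.14 at 24 h, where 1 passed. Their mean levels were only 1.71 to 20.8 CPM, against 70.9 CPM for miR-7704, which limits this comparison. A list of entries lying inside tRNA, rRNA, U2 or snoRNA, mostly miR-4454, summed to 4189 to 4318 CPM in DMSO and 4609 to 4869 CPM in PA at 3 h, 3593 to 6116 and 6847 to 11433 CPM at 12 h, and 7099 to 8758 and 8992 to 11091 CPM at 24 h. Of its 11 tested entries 8, 6 and 7 had a positive log2 fold change, with medians of 0.08, 0.26 and 0.10, and 0, 1 and 0 passed. At 24 h, red blood cell miRNAs, nearly all miR-486-5p, summed to 380 to 397 CPM in DMSO and 501 to 553 CPM in PA. Fibroblast and endothelial miRNAs, mostly miR-126-3p, summed to 694 to 706 and 594 to 658 CPM. The islet list summed to 163 to 169 and 67.3 to 100 CPM, and the acinar list to 0.433 to 2.46 and 4.01 to 5.04 CPM. The muscle, liver or nerve list summed to 2.60 to 3.69 and 6.73 to 7.22 CPM. The haematopoietic list overlapped, at 1.64 to 1.73 and 1.68 to 3.21 CPM. The part of these lists in the miR-7704 result was not tested. The 18S and 28S rRNA sequences were not analysed here, so a match of miR-7704 to them was not tested.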

How the data were processed

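The authors deposited a table of raw read counts per mature miRNA, in whole numbers, for 14 libraries, and every value column matched a library title. The submitters' processing notes name bcl2fastq, Bowtie, edgeR and build GRCh38. Versions, roles, annotation, strand use and the treatment of reads with several matches are not given in the sources used here. A second, TPM table was not used.

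Counts were fitted with edgeR 4.0.16 in R 4.3.3 (TMM, filterByExpr by group at its minimum count of 10 and minimum total of 15, glmQLFit robust, quasi-likelihood F test, 1 fit of all 7 groups), tested first on simulated data. In the simulated PA against DMSO comparison at 24 h, 44% of 2-fold and 82% of 4-fold changes were recovered, and 3.82% of calls were false. Many 2-fold changes would therefore be missed. Common biological coefficient of variation was 0.203. Adjusted p-values are Benjamini-Hochberg over 810 entries, with a threshold of 0.05. Log2 CPM for correlations used a prior count of 2. The 7 members and all lists were chosen with earlier results of these data known. Named besides the members were other mature miRNAs of HOX hairpins, the miR-99/100 relatives, the 5 (miR-7704) or 3 (others) entries of highest r, and the neighbours of miR-7704 by fold change. The miRNAs singled out in lists were named after their values were seen. Alternatives were library totals, DESeq2 1.42.0, no filter, a replicate block, fewer libraries, other DMSO times and leaving out each library. Hairpins and transcripts came from RefSeq GRCh38.p14 and GENCODE 29. Read counts cover counting error only.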

Additional observations from a re-analysis of the deposited data

Results flagged for a closer look

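A set of 5 values is listed here by 1 rule. Both PA libraries lay above both DMSO libraries at 1 time and below them at a neighbouring one. Neighbouring times were 3 and 12 h, or 12 and 24 h. The share of the 810 entries with such a switch was not counted, so nothing is read from these 5. The PA effect (log2, PA over DMSO) at 12 h minus that at 3 h was 0.40 for miR-10a-5p, 0.63 for miR-10b-5p and 0.83 for miR-196a-3p, whose PA libraries were below DMSO at 3 h and above it at 12 h. The PA effect at 24 h minus that at 12 h was −0.57 for miR-196a-5p and −1.79 for miR-196a-3p, whose PA libraries were above DMSO at 12 h and below it at 24 h. All 5 use DMSO at 12 h, without which fewer entries passed in the DMSO time course, and none of the 5 was tested. miR-10a-5p and miR-10b-5p were likewise below DMSO at 3 h and above it at 24 h. There the difference was tested, and it was 0.68 and 0.90 and missed the threshold (adjusted p = 0.279 and 0.225, edgeR). Results of this comparison were known when the members were chosen, so these p-values are a description only. With 2 libraries against 2, the PA libraries lay wholly above DMSO for 16.3%, 25.3% and 25.6% of the 810 entries at 3, 12 and 24 h, and wholly below for 16.0%, 26.8% and 26.5%.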

How the results depend on the processing

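No result reversed a called direction, but calls of members were lost in part of the alternatives. For PA against DMSO this held for miR-196a-3p at 24 h in 9 of 21. It held for miR-7704 in 6 of 21 at 3 h and in 3 of 20 at 12 h. The call of miR-196a-3p in the DMSO time course was lost in 11 of 20. The PA contrasts were known when the members were chosen, so their calls are a description only. Counts of entries past the threshold moved as follows. At 3 h the count was 2, and it was 1 with only the compared libraries, 1 without the DMSO 12 h libraries (an alternative added after seeing the data) and 1 to 2 leaving out 1 library. At 12 h it was 90, against 33 with only the compared libraries, 5 with the other DMSO times as control and 34 to 107 leaving out 1 library. At 24 h it was 54, and 12 to 71 leaving out 1 library. For the PA effect at 24 h minus 3 h it was 10, against 17 with DESeq2, 21 without the filter and 3 to 19 leaving out 1 library. For the DMSO time course it was 106, against 36 without the DMSO 12 h libraries and 67 to 136 leaving out 1 library. The cause was not tested, beyond fewer libraries where some were left out. Differences between libraries A and B were little correlated between DMSO and PA (r of 0.037, −0.12 and −0.016 at 3, 12 and 24 h). Such values cannot show whether A and B were grown or run as pairs, since counting noise also lowers them. With the letter as a replicate block the counts were 2, 77, 50, 9 and 103, in the order above. With 1 library left out of a group, the other is assumed to vary like the other groups. miR-196b-5p was filtered out in some such fits and has no value there. Depth limits miR-196b-5p (1 to 16 reads a library) and miR-7704 in DMSO (8 to 39 reads).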
